A study of Mus musculus with 3 samples.

Results

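Genes for the scaffolds, kinases, phosphatases, actin regulators and adhesion proteins of the postsynaptic side of the synapse were followed in the cortex of mice with a mutated copy of Gtf2i. The 42 genes form a list grouped by function and chosen with earlier results of these data known. A probe belonged to the list when its accession matched one of these symbols in RefSeq. Of the 42, 37 had a matching probe, with 51 probes in all among 41174 on the array, and 34 genes with 46 probes had enough signal to be tested. Shank1, Shank2, Kalrn, Nrxn2 and Il1rapl1 had no matched probe and were not analysed here.

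Mutant animals were heterozygous for an allele of Gtf2i that lacks exon 2, Gtf2i(+/Δex2), and the reference animals were wild type (+/+). Both genotypes were adults of 16 weeks on a mixed background of 98.4% C57BL/6J and 1.6% 129Sv/CD1. Each of the 3 two-colour arrays set a pool of mutant cortex RNA, from 3 to 5 mice, against a wild-type pool. Cy3 marked the mutant pool on replicates 1 and 3, and Cy5 marked it on replicate 2. Nothing in the labels tells whether a fresh pool was made for each array. The p-values therefore reflect the scatter of 3 hybridisations, which may be technical, and the number of arrays limits the precision. All ratios are log2 of mutant over wild type. That direction is likely, not stated outright: it rests on the titles, on the readme's definition of the fold as test over control, and on the Pro25G control spots, whose median log2 ratios of 4.51, -4.54 and 4.58 on replicates 1 to 3 turned over with the dyes, a direction that holds if those spots bind a Cy3-labelled oligonucleotide.

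The postsynaptic density lies under the membrane of excitatory synapses. Guanylate kinase scaffolds of the Dlg family hold glutamate receptors there, Dlgap proteins join them to Shank and Homer, and calcium entry acts on CaMKII and calcineurin. Neurexins on the axon side bind neuroligins and leucine-rich proteins on the dendrite side. Gtf2i encodes TFII-I, a transcription factor known to bind initiator and E-box elements.

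Medians of gene spots were close on the 3 arrays, at a signal of 205.2, 204.8 and 204.7, and 67.8%, 64.4% and 69.7% of gene spots were flagged reliable. Both Gtf2i probes fell. A_52_P442585 read -0.47 ± 0.04 (SD, n = 3 arrays; limma adjusted p = 0.00261), and the brighter A_51_P499905 read -0.32 ± 0.05 (limma adjusted p = 0.00506). No source used here places either probe inside or outside exon 2, so they do not check the genotype. The 5 markers used for cortical excitatory neurons, Slc17a7, Neurod6, Tbr1, Cux2 and Fezf2, all had enough signal to be tested. So did all 6 markers of the thalamus and all 7 of the striatum, so detection alone does not check the label of the tissue. Of the 5 excitatory neuron markers 4 fell and 0 rose. Their summed signal was 2668, 2936 and 2856 in mutant cortex on replicates 1 to 3, against 3111, 3327 and 3952 in wild-type cortex. Counts for markers of other cells stand beside the shares of all named genes tested, of which 23.6% fell and 17.1% rose. Of the astrocyte markers 4 fell and 1 rose among 6 tested, of the microglia markers 4 fell and 1 rose among 5, and of the interneuron markers 2 fell and 0 rose among 5. Of the oligodendrocyte markers 2 fell and 1 rose among 6, and of the vessel markers 1 fell and 2 rose among 4. All 3 blood genes fell, with a median log2 ratio of -0.46, while 0 of 4 choroid plexus markers fell and 2 rose. The summed astrocyte signal was 25009, 28462 and 23869 in mutant cortex, against 28746, 30659 and 28489 in wild-type cortex. The part of any of these cells in the results for the synaptic genes was not tested, and in these bulk samples fewer cells of a type and less RNA per cell cannot be told apart.

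Across the 34 tested genes, 16 fell in mutant cortex, 3 rose and 15 did not pass. A gene was counted by its probe with the smallest p, at a limma adjusted p under 0.05 over all tested probes. Among all named genes tested the same count gave 23.6% lower and 17.1% higher, with 40.7% called either way. Because earlier results were known when the list was chosen, these shares are a background and not a test of the list. Falls ran from -0.17 in Cntnap2 to -0.76 in Dlgap4 with a median of -0.41, and the rises were 0.17, 0.21 and 0.41. The median log2 ratio of the 34 genes was -0.11, against -0.02 for all named genes. Past a change of 1.5-fold there were 2 falls, Dlgap4 and Cyfip2, and 0 rises, where 1.86% of named genes fell and 0.598% rose that far.

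Counted by probe, 20 of 46 were lower and 4 higher, with 18.9% and 15% of all tested probes. The median log2 ratio of the 46 probes was -0.16, -0.17 and -0.07 on replicates 1, 2 and 3. On each array it lay below the median of all tested probes, which was -0.01 on replicate 1 and within 0.01 of 0 on the others. The share with a single sign on all 3 arrays was 30 of 46, or 65.2%, near the 65.1% of all tested probes. Probes of these genes were bright. With all tested probes split by signal into 4 groups of equal size, 25 of the 46 lay in the brightest group, where 26.6% of all probes were lower and 23.6% higher. In that group 8 of the 25 were lower and 4 higher. In the next brightest, with 22.6% of all probes lower and 18.2% higher, 7 of 11 were lower and 0 higher. The count of falls was 11 without replicate 1, 12 without replicate 2 and 16 without replicate 3. The count of rises was 1, 5 and 3 in the same order.

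**Figure D1:**
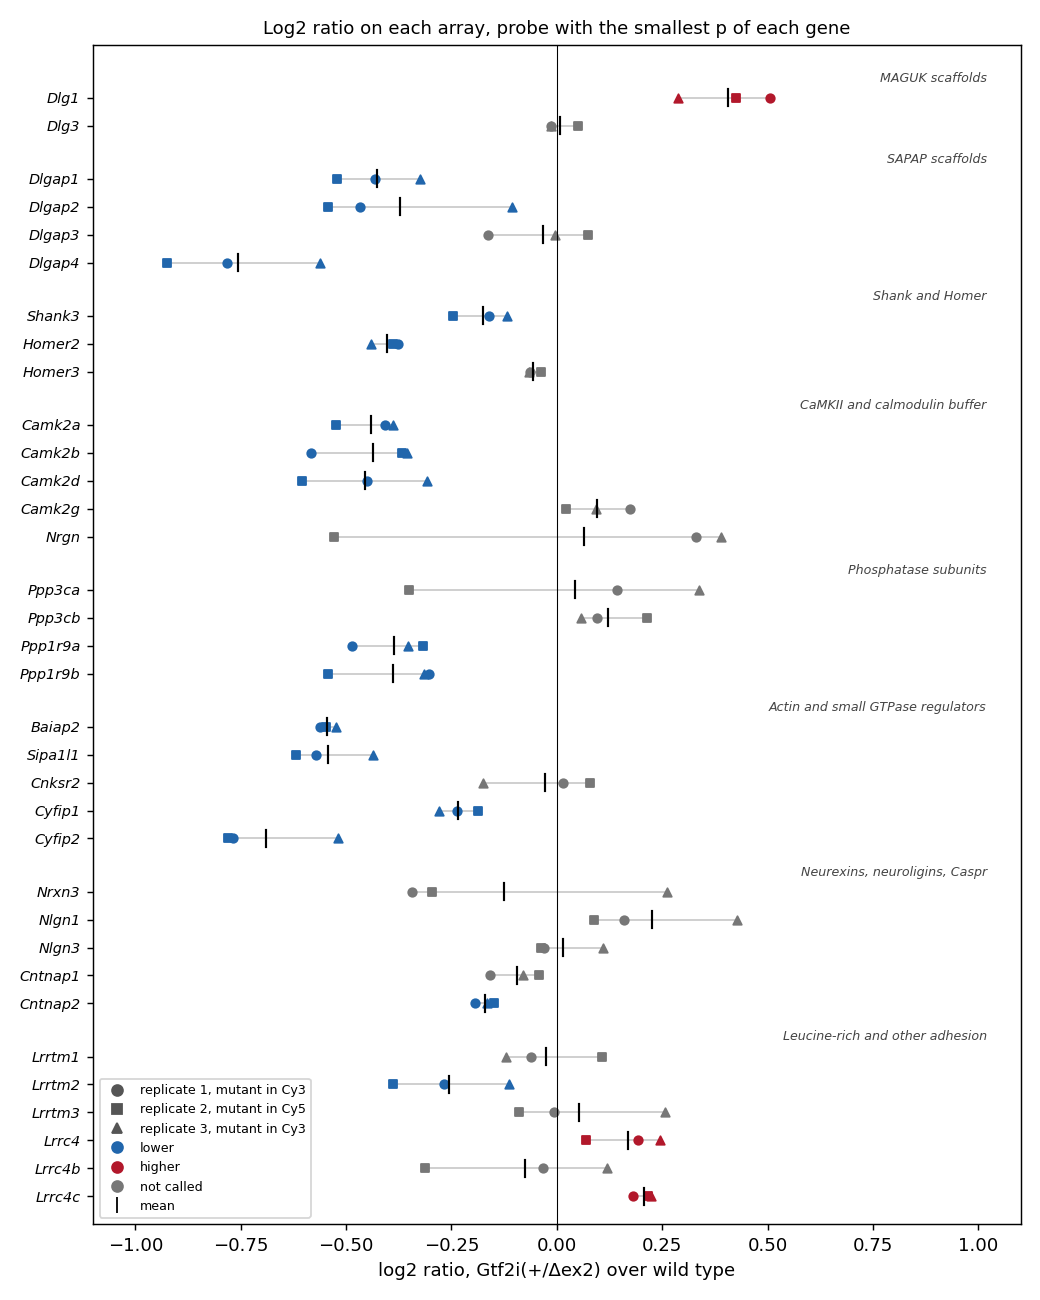
Log2 ratio of Gtf2i(+/Δex2) over wild-type signal on the x axis for each of the 34 tested genes on the y axis, grouped by role, with a symbol per array, a bar at the mean, and colour for the limma call. The 16 genes called lower have all 3 arrays left of 0, whereas Nrgn and Ppp3ca have replicate 2 on the other side of 0 from replicates 1 and 3.

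The Dlg scaffolds were the group without a fall, but only 2 of the 4 genes could be tested. Dlg1, a scaffold that carries AMPA receptors, rose: its probe A_52_P36731 had a signal of 6564, 7007 and 5786 in mutant cortex on replicates 1 to 3, against 4624, 5222 and 4740 in wild-type cortex. The mutant signals all lay above the wild-type signals. Its log2 ratio was 0.41 ± 0.11 (SD, n = 3; limma adjusted p = 0.00559). A second Dlg1 probe read 0.15, 0.21 and -0.03 on the arrays and did not pass (limma adjusted p = 0.199), although it did without replicate 3 (0.0304). Dlg3, the scaffold that is prominent early in synapse development, read -0.01, 0.05 and -0.01, with a 95% interval of -0.09 to 0.10. Dlg4 and Dlg2, the scaffolds of the mature synapse, could not be tested, since each had 1 probe flagged reliable on 1 array. Their dim probes read below 0 on each array, Dlg4 at -0.24, -0.25 and -0.12 and Dlg2 at -0.23, -0.18 and -0.06. The Dlg4 probe had signals of 108.3, 107.1 and 127.3 in mutant cortex and 127.8, 127.1 and 138.1 in wild-type cortex. Medians of the negative control spots were 72.3 to 81.4.

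Among the Dlgap genes, whose proteins bind the guanylate kinase domain of the Dlg scaffolds, 3 of 4 fell, beside 23.6% of all named genes. Dlgap4 had the largest fall of all the genes followed: its signal was 328.6, 343.7 and 423.6 in mutant cortex, against 565.0, 652.5 and 625.6 in wild-type cortex. The signals of the genotypes did not overlap, and the log2 ratios were -0.78, -0.92 and -0.56. The mean of -0.76 ± 0.18 (SD, n = 3; limma adjusted p = 0.00335) put mutant cortex at 59.2% of wild type. Dlgap1 read -0.43, -0.52 and -0.32 on the arrays, a mean of -0.43 ± 0.10 (limma adjusted p = 0.00452). Dlgap2 read -0.47, -0.54 and -0.11 at its probe A_52_P68306, a mean of -0.37 ± 0.23 (limma adjusted p = 0.0294). Its second probe read 0.01 ± 0.07, and the call was lost without replicate 1 (limma adjusted p = 0.141), without replicate 2 (0.108) and with replicates 1 and 2 averaged (0.117). Dlgap3 did not pass at -0.03, with a 95% interval of -0.17 to 0.11.

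Windows before the starts of 4 genes whose calls are described here are shown because TFII-I is known to bind E-box elements. Each holds the 250 bases before 1 transcript start that RefSeq lists (build GRCm38.p6), read 5′ to 3′ along the gene, with every CANNTG in capitals. That start lies 107332 bases inside the 5′ end of the RefSeq gene for Dlgap4, 3176 for Baiap2, 501 for Cyfip2 and 0 for Lrrc4c, so the first of these is far from the outermost start of its gene. Which start is used in cortex was not measured. Dlgap4, Cyfip2 and Baiap2 were lower in mutant cortex and Lrrc4c was higher.
Dlgap4, chr2:156720715-156720964, plus strand: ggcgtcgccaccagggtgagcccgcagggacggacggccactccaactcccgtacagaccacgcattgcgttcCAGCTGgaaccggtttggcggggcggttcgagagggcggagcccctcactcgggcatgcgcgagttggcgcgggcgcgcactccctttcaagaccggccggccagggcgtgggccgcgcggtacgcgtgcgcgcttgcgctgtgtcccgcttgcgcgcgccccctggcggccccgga
Cyfip2, chr11:46312359-46312608, minus strand: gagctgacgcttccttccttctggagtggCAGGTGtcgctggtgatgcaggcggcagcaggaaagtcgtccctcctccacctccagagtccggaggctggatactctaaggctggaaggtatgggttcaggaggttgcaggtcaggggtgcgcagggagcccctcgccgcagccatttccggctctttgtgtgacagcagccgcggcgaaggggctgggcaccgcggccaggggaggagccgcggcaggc
Baiap2, chr11:119942842-119943091, plus strand: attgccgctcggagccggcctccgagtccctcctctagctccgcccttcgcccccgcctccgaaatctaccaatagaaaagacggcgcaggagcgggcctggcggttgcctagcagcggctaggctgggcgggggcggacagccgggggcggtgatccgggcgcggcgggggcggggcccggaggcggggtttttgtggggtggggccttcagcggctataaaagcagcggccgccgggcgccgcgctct
Lrrc4c, chr2:96317919-96318168, plus strand: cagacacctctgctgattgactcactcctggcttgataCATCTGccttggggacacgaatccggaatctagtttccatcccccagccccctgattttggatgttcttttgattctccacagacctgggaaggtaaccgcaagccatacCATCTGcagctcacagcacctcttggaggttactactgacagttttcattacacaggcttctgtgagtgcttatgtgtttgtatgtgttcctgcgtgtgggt
These windows hold 1, 1, 0 and 2 matches to CANNTG in that order. The letters CANNTG read the same on both strands. For 26 of the 34 tested genes RefSeq windows were at hand, 39 in all. CANNTG occurred in 66.7% of them and in 66.2% of all 32851 windows of the same length. CACGTG, which is itself a CANNTG, occurred in 4 of the 39, or 10.3%, and in 6.02% of all windows. A match of letters is a description and not a binding site.

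Of the Homer and Shank genes on the list, 3 could be tested: Homer2 and Shank3 fell and Homer3 did not pass. Homer2, which couples metabotropic glutamate receptors to Shank, was lower at both of its probes. A_52_P176573 read -0.38, -0.39 and -0.44, a mean of -0.40 ± 0.03 (SD, n = 3; limma adjusted p = 0.00321). A_51_P352303 read -0.33, -0.35 and -0.71, with its lowest value on replicate 3 (limma adjusted p = 0.013). Shank3, a master scaffold linking Dlgap to the actin skeleton, had a smaller fall of -0.18 ± 0.07 (SD, n = 3; limma adjusted p = 0.0302). That call was lost without replicate 1 (0.17), without replicate 2 (0.0796), with replicates 1 and 2 averaged (0.0989) and with the negative control level subtracted (0.0553). Homer3 read -0.06 on the mean, with a 95% interval of -0.15 to 0.04.

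CaMKII is the calcium and calmodulin dependent kinase that is abundant in the postsynaptic density. Of its 4 subunit genes 3 fell, by similar amounts at their probes with the smallest p, beside 23.6% of all named genes. Camk2a, the alpha subunit of forebrain excitatory neurons, had a signal of 17201, 21846 and 29807 in mutant cortex on replicates 1 to 3, against 22834, 31430 and 39035 in wild-type cortex. Signals of the genotypes overlapped across arrays, but the mutant signal was the lower on each array, and the mean log2 ratio was -0.44 ± 0.07 (SD, n = 3; limma adjusted p = 0.00347). Its other probe, A_51_P343218, read -0.23, -0.14 and -0.20 (limma adjusted p = 0.02). This other probe was dim, with a signal of 164, and read -0.37 with the negative control level subtracted. Its call was lost without replicate 1 (limma adjusted p = 0.181) and with replicates 1 and 2 averaged (0.0604).

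Camk2b, the beta subunit that also binds actin, read -0.58, -0.37 and -0.35, a mean of -0.44 ± 0.13 (SD, n = 3; limma adjusted p = 0.00579). Camk2d, the delta subunit, was lower at both probes. A_51_P510817 read -0.45, -0.61 and -0.31 (limma adjusted p = 0.00655), and A_52_P188261 read -0.35, -0.26 and -0.22 (limma adjusted p = 0.00864). The weaker of these lost its call without replicate 1 (0.0856). Camk2g, the gamma subunit, stood apart from the rest at 0.17, 0.02 and 0.09. It did not pass (limma adjusted p = 0.154), and its 95% interval of -0.02 to 0.21 lay above the intervals of the other 3 subunits, -0.55 to -0.33 for Camk2a, -0.58 to -0.29 for Camk2b and -0.61 to -0.29 for Camk2d. The difference itself was not tested.

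Nrgn and Ppp3ca, both bright, gave ratios above 0 on replicates 1 and 3 and below 0 on replicate 2. Only replicate 2 had the mutant in Cy5, so the dye cannot be told apart from anything else particular to that array. Nrgn encodes neurogranin, which binds calmodulin when calcium is low. Its signal was 44967, 45919 and 57213 in mutant cortex, against 35797, 66241 and 43648 in wild-type cortex, and the Cy3 channel was the brighter on all 3 arrays. The log2 ratios of 0.33, -0.53 and 0.39 gave a mean of 0.06 with a 95% interval of -0.40 to 0.53 (limma adjusted p = 0.812). A fit with the dye as a term gave Nrgn -0.08 (limma adjusted p = 0.151), and the dye term had an unadjusted p of 0.000285 and an adjusted p of 0.224 by limma. Nrgn passed without replicate 2, at 0.36 (limma adjusted p = 0.0174), where both remaining arrays had the mutant in Cy3. With array weights it passed at 0.29 (0.026). The probe was flagged saturated on 1 array. Ppp3ca, a catalytic subunit of the phosphatase calcineurin, read 0.14, -0.35 and 0.34 in the same pattern, with a dye term of adjusted p = 0.559 by limma. Over all 27531 tested probes the dye term passed for 0 by limma, with 2409 at an unadjusted p under 0.05.

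**Figure D2:**
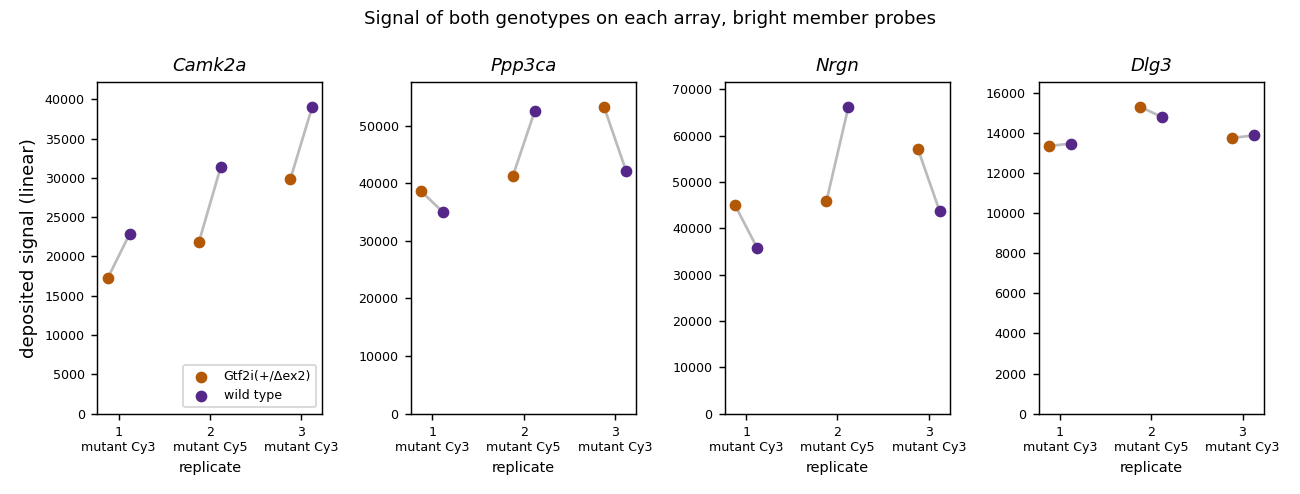
Deposited linear signal on the y axis for 4 bright probes, with Gtf2i(+/Δex2) left of wild type at each replicate on the x axis, and the dye of the mutant RNA under the replicate number. Camk2a was lower in mutant cortex on all 3 arrays, whereas for Ppp3ca and Nrgn the genotype in Cy3 was the brighter on each array.

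Ppp3cb, another catalytic subunit of calcineurin, had probes at 0.12 ± 0.08 and -0.08 ± 0.08 (SD, n = 3), and neither passed; with the dye as a term the first did (0.14, limma adjusted p = 0.046). Ppp3cc, a catalytic subunit gene outside the list of 42 that was named after its value was seen, rose at A_51_P245405, with 0.51, 0.48 and 0.25 on the arrays (limma adjusted p = 0.00751), and did not pass at its other probe, at 0.13 (0.12). The genes for the spine proteins that bring protein phosphatase 1 to its substrates were lower. Ppp1r9b, which encodes spinophilin, read -0.30, -0.54 and -0.32, a mean of -0.39 ± 0.14 (SD, n = 3; limma adjusted p = 0.00832). Ppp1r9a, which encodes neurabin, read -0.49, -0.32 and -0.35 at A_52_P666754, a mean of -0.39 ± 0.09 (limma adjusted p = 0.00492). A further Ppp1r9a probe, reliable on 1 array and so not tested, read -0.48, -0.42 and -0.41. The remaining tested probes did not pass. A_52_P239536 read -0.26, -0.39 and 0.16 and A_52_P167843 read 0.04, -0.16 and 0.08. The first of them passed without replicate 3, at -0.33 (limma adjusted p = 0.0025), and with array weights (0.00759).

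Counted by smallest p, 4 of the 5 measured regulators of actin and small GTPases fell, beside 23.6% of all named genes. Cyfip1 is among the 4, although its probes had opposite calls. Cyfip2, a subunit of the WAVE complex that drives actin branching, had signals of 3646, 4042 and 5008 in mutant cortex, against 6214, 6946 and 7177 in wild-type cortex. The genotypes did not overlap, and the mean log2 ratio of -0.69 ± 0.15 (SD, n = 3; limma adjusted p = 0.00312) put mutant cortex at 62.0% of wild type. Baiap2, which links Rac to actin at the membrane, had the tightest values among the larger falls, -0.56, -0.55 and -0.53, a mean of -0.55 ± 0.02 (limma adjusted p = 0.00214). Sipa1l1, a GTPase-activating protein for Rap that shapes spines, read -0.57, -0.62 and -0.44, a mean of -0.54 ± 0.10 (limma adjusted p = 0.00307). Cnksr2, a scaffold of the Ras pathway, did not pass, with -0.03 on the mean and a 95% interval of -0.18 to 0.12.

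Cyfip1, the close relative of Cyfip2 that also binds the fragile X protein, had probes with opposite calls. A_51_P403005 read -0.24, -0.19 and -0.28, a mean of -0.23 ± 0.05 (SD, n = 3; limma adjusted p = 0.0105). A_51_P403006, assigned to the same transcript accession, read 0.21, 0.29 and 0.14, a mean of 0.21 ± 0.07 (limma adjusted p = 0.0192). The arrays were of a single sign for each probe, so a direction for Cyfip1 is not settled by these data, and its count among the falls follows from the rule of the smallest p. Both calls were lost without replicate 1 (limma adjusted p = 0.0965 and 0.129), and the second also without replicate 2 (0.0556).

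**Figure D3:**
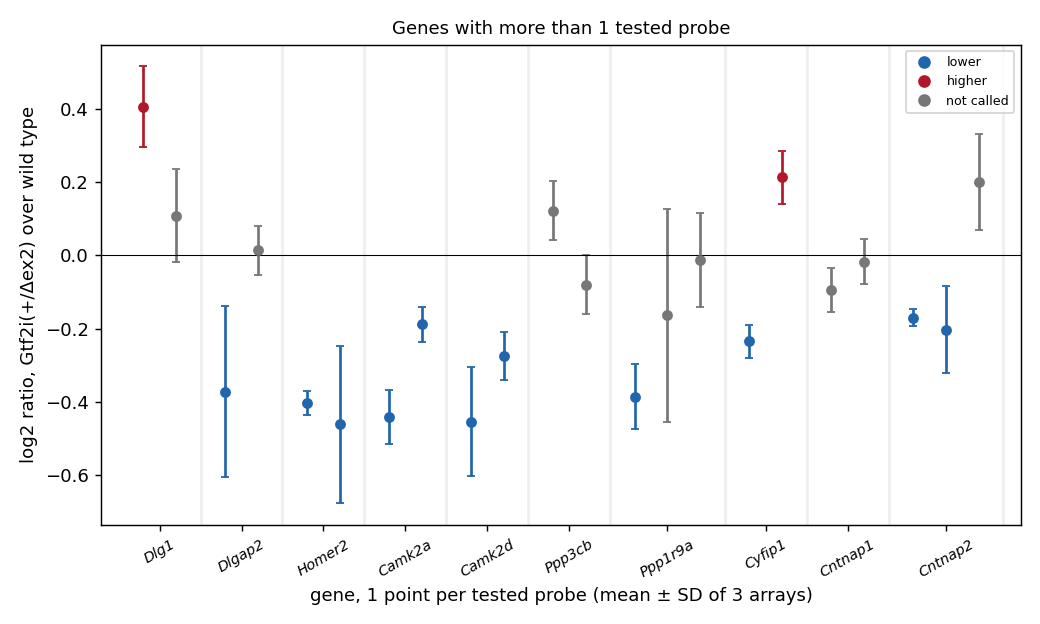
Mean log2 ratio of Gtf2i(+/Δex2) over wild type on the y axis for each tested probe of the 10 genes with more than 1, grouped by gene on the x axis, with bars for the SD of 3 arrays and colour for the limma call. Homer2, Camk2a and Camk2d are lower at every tested probe, and the 2 probes of Cyfip1 lie on opposite sides of 0.

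Probes of the same gene did not always share a call, and how often this occurs over all named genes was not counted. Called and uncalled probes of a gene were not tested against each other. Of 10 genes with more than 1 tested probe, 3 were called lower at every probe, 4 had called and uncalled probes, 2 had none called, and Cyfip1 had opposite calls. The other 11 called genes rest on 1 tested probe each. With the brightest tested probe standing for each gene, 13 genes fell and 4 rose, and with the mean of a gene's probes 13 fell and 3 rose.

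Neurexins, neuroligins and Caspr genes mostly did not pass. Nlgn1, the neuroligin of excitatory synapses, read 0.16, 0.09 and 0.43, a mean of 0.22 with a 95% interval of 0.04 to 0.41 (limma adjusted p = 0.0646), and Nlgn3 read 0.01 with an interval of -0.10 to 0.13. Nrxn3, a presynaptic partner of the neuroligins, read -0.34, -0.30 and 0.26 at its tested probe A_52_P39644. It was below 0 on replicates 1 and 2 and above 0 on replicate 3, and passed without replicate 3 at -0.32 (limma adjusted p = 0.00198). Replicate 3 also stood apart in some markers of the thalamus. The mean log2 ratio of the 6 measured was -0.00, 0.01 and 0.73 on replicates 1, 2 and 3. At its probe with the smallest p Tcf7l2 read 0.46, 0.60 and 1.76 on replicates 1 to 3. On replicate 3 Zic1 and Prkcd read 1.36 and 1.13 at their probes with the smallest p. The other probes of Tcf7l2, Zic1 and Prkcd read 0.02, 1.43 and 0.48 on that replicate. Lhx9, Lhx2 and Calb2 read 0.15, -0.03 and 0.04 there. The summed signal of the 6 was 8046, 8876 and 7137 in mutant cortex, against 7381, 8026 and 4448 in wild-type cortex. The 7 striatum markers had a mean log2 ratio of -0.22, -0.35 and 0.18 on replicates 1, 2 and 3. The part of either set in the Nrxn3 value was not tested.

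Cntnap2, a neurexin-like protein that clusters potassium channels beside the node of Ranvier, was called lower by 2 of its 3 probes. A_52_P215750 read -0.19, -0.15 and -0.17, a mean of -0.17 ± 0.02 (SD, n = 3; limma adjusted p = 0.0218). It was dim, with a signal of 162 at the 12.5th percentile of tested probes. With the negative control level subtracted it read -0.35. The other probes, A_52_P168559 and A_51_P260850, had signals of 731 and 781 and lay on opposite sides of 0. A_52_P168559 read -0.33, -0.19 and -0.09 (limma adjusted p = 0.0415). A_51_P260850, which carries a different accession of the gene, read 0.20, 0.07 and 0.33 (limma adjusted p = 0.0503). This probe on the other side of 0 passed in 4 alternatives, among them without replicate 2 (0.0352). Without replicate 1 neither of the lower calls was kept (limma adjusted p = 0.195 and 0.255). The call of A_52_P215750 was also lost with replicates 1 and 2 averaged (limma adjusted p = 0.0767). A_52_P168559 lost its call in 6 of 12 alternatives, among them without replicate 2 (0.105). Cntnap1, the Caspr of the paranode, read -0.09 and -0.02 at its probes and did not pass.

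Of the 6 leucine-rich adhesion genes tested 1 fell and 2 rose, beside 23.6% and 17.1% of all named genes. Lrrtm2, a postsynaptic ligand of neurexins, read -0.27, -0.39 and -0.11, a mean of -0.26 ± 0.14 (SD, n = 3; limma adjusted p = 0.0276). This fall did not pass without replicate 1 (0.141), without replicate 2 (0.0782) or with both averaged (0.0971). Lrrtm1 and Lrrtm3, of the same family, read -0.02 and 0.05 and did not pass, and the probe of Lrrtm4 was reliable on 0 arrays. Lrrc4c, of the netrin-G ligand family, had signals of 4269, 4260 and 3635 in mutant cortex, against 3769, 3670 and 3114 in wild-type cortex. The mutant signal was the higher on each array, with ratios of 0.18, 0.22 and 0.22 and a mean of 0.21 ± 0.02 (limma adjusted p = 0.0126), although it did not pass without replicate 1 (0.101).

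Lrrc4, of the same family, read 0.19, 0.07 and 0.25, a mean of 0.17 ± 0.09 (SD, n = 3; limma adjusted p = 0.0466). It lost its call in 6 of 12 alternatives, with limma adjusted p up to 0.247, which was the value without replicate 1; without replicate 3 it was 0.108. Lrrc4b, the remaining member of that family, read -0.03, -0.31 and 0.12 and did not pass.

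**Figure D4:**
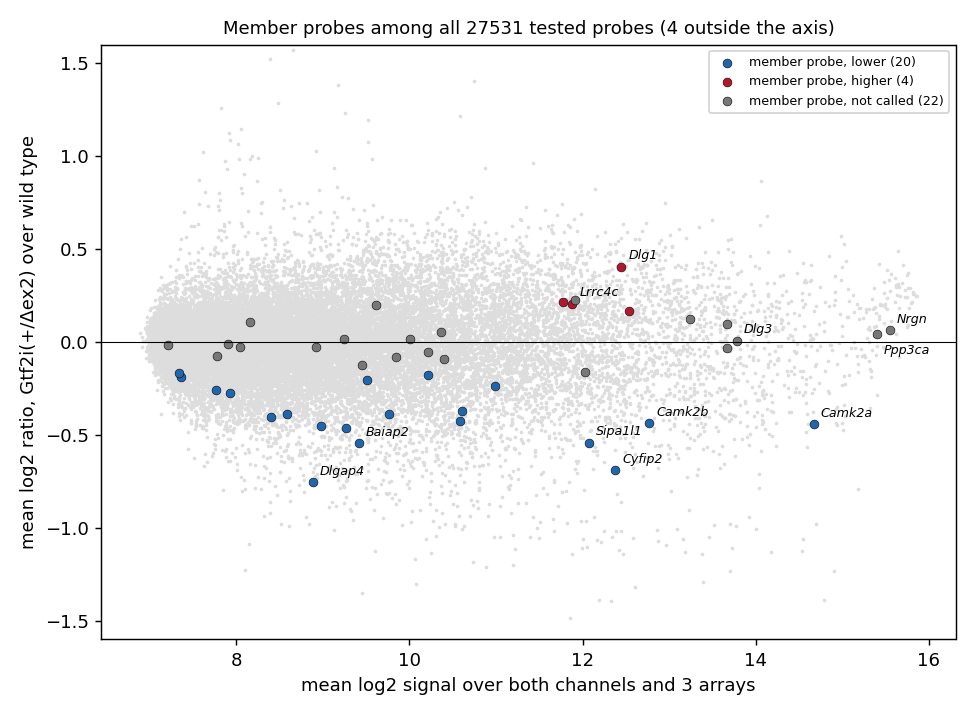
Mean log2 ratio of Gtf2i(+/Δex2) over wild type on the y axis against mean log2 signal on the x axis, with all 27531 tested probes in grey (4 lie outside the axis) and the 46 probes of the genes followed in colour by limma call. The 20 probes called lower spread over the signal range and reach -0.76 at Dlgap4, and the 4 called higher all lie at the bright end.

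Other genes of the postsynaptic density, its kinases and synaptic adhesion moved both ways as well. Of 124 such genes 97 had a matched probe and 89 were tested, of which 36 fell and 15 rose, with a median of -0.14; the shares for all named genes were 23.6% and 17.1%. Camk4, the nuclear kinase activated by calmodulin, read -0.82 ± 0.05 (SD, n = 3; limma adjusted p = 0.002) at its lower probe and -0.02 at the other. Ppp1ca, a catalytic subunit of protein phosphatase 1, read -0.94 ± 0.11, and Arhgef7, an exchange factor for Rac, read -0.86 ± 0.16. Wasf1, which encodes the neuronal WAVE protein, read -0.59 ± 0.09. Dbn1, which encodes the spine actin-binding protein drebrin, read -0.51 ± 0.07. Tanc1, a scaffold of the postsynaptic density, rose, at 0.44 ± 0.05. Without replicate 1 the count was 16 falls and 7 rises.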

How the data were processed

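Arrays of 60-mer Agilent probes were hybridised with RNA amplified from 500 ng of Trizol extract with an RNA integrity number of at least 7.0, per the labels' protocols. The authors deposited linear intensity values per spot and channel, background-subtracted and normalized by a method not given in the sources used here, with GenePix named as image software, per the deposited readme. The deposited value table holds a score, the signed fold of each spot, and 0 spots differed from the fold in the array files. Its columns were all used, with 0 left out, and its medians were -1.01, -1 and 1 on replicates 1, 2 and 3. A spot counted as reliable where the deposited flag said so, which the readme ties to foreground above 2 times background.

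From these, log2 ratios of the deposited channels were averaged over spots of a probe, and probes reliable on at least 2 arrays, 27531 of 41174, entered limma 3.58.1 under R 4.3.3, where lmFit and eBayes tested each mean against 0, with Benjamini-Hochberg adjustment. Ratios correlated across probes with r = 0.822 between replicates 1 and 2, 0.783 between 1 and 3 and 0.625 between 2 and 3. Accessions were matched without versions to RefSeq genes on GRCm38.p6, which named 52.1% of probes. All 42 genes could be named, with values on each array for those past the threshold. Of the other postsynaptic genes the 6 with the smallest p were named by rule. Ppp3cc and further genes of the WAVE complex and protein phosphatase 1, from the same list, were named after their values were seen. A marker gene is not reported here and was left out of its list. The fit was tested on simulated data. The members and lists were chosen with earlier results of these data known. Alternatives were loess, median centring, other filters on dim probes, subtraction of the negative control level (floor 10), a dye term, replicates 1 and 2 averaged, array weights, the authors' deposited log2 ratio with spots collapsed, other rules for the probe of a gene, and leaving out each replicate.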

Additional observations from a re-analysis of the deposited data

How the results depend on the processing

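Of the 16 falls, 11 passed under all 12 alternatives for single probes (Dlgap1, Dlgap4, Homer2, Camk2a, Camk2b, Camk2d, Baiap2, Sipa1l1, Cyfip2, Ppp1r9a and Ppp1r9b), as did 1 of the 3 rises, Dlg1, and no called probe changed sign in any of them. These alternatives followed each gene's probe with the smallest p and did not vary the choice of probe. Ppp1r9a and Dlg1 also had tested probes that were not called. The Ppp1r9a probe A_52_P239536, at a signal of 4165 against 385 for the called probe, had a limma adjusted p of 0.291. Second probes of Camk2a and Camk2d lost their calls in some alternatives. Leaving out 1 replicate at a time gave 11 to 16 falls and 1 to 5 rises, 16 to 40 falls and 7 to 17 rises among the other postsynaptic genes, and 2407 to 9886 of all tested probes, where the full set gave 9333. With replicates 1 and 2 averaged as 1, 23 other postsynaptic genes fell and 5122 probes were called. Array weights, which favoured replicate 1 (5.84, against 0.373 and 0.459 for replicates 2 and 3), gave 21 falls and 6 rises, 53 falls and 24 rises among the other postsynaptic genes, and 18614 probes. The cause of these shifts was not tested. The ratios already pair the genotypes by array, so the replicate number could not be fitted as a further block. Dim signal limits Dlg2, Dlg4 and Lrrtm4, and without a filter on dim probes 17 genes fell and 2 rose.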

Other observations

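Genes were picked here after their values were seen. In the WAVE complex, which holds the Cyfip proteins, the subunit genes outside the list went both ways: Wasf1 read -0.59, Wasf3 -0.56 and Wasf2 -0.15, while Nckap1 read 0.56 and Abi2 0.23, all past the limma threshold. Abi1 read -0.25 at a probe that passed and 0.06 at one that did not, and the second Nckap1 probe read 0.13 and did not pass.

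The catalytic subunit genes of protein phosphatase 1, which the products of Ppp1r9a and Ppp1r9b bring to spines, also differed in sign. Ppp1ca read -0.95, -1.05 and -0.83 on replicates 1 to 3. Ppp1cb read 0.40, 0.49 and 0.35, and Ppp1cc read 0.36, 0.36 and 0.35 at A_52_P519508, while its probe A_52_P540434 read 0.05 on the mean and did not pass.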
